A study of Mus musculus with 10 samples.

Results

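The genes described here are 10 genes of eosinophils, mast cells and basophils: Prg2, Prg3, Epx, Ear1, Ear2, Mcpt8, Cpa3, Ms4a2, Fcer1a and Gata2. They were taken by name from the gene identifiers of the deposited count table, which holds 46959 genes, and all 10 had a row. RNA was sequenced from 10 mouse preparations, all labelled as B cells. The 4 femoral libraries were each made from pooled RNA of 3 mice, taken without culture. Of these, 1 pool came from KOKI mice lacking RAG2 and gamma c, 1 pool from KOKI mice lacking RAG2 alone, and 2 control pools from mice lacking RAG2 and gamma c without KOKI. RAG2 is needed to rearrange antigen receptor genes, and gamma c is the receptor chain, encoded by Il2rg, that several interleukin receptors share. Every femoral group thus lacked RAG2, and every one but the second KOKI pool lacked gamma c. According to the submitters' design text, 2 pooled RNAs were made per femoral genotype, for 3 genotypes, while the labels used here give 1 pool of each KOKI genotype and 2 control pools. The 6 splenic libraries came from spleen cells without CD43, grown for 2 days with lipopolysaccharide (LPS, 5 µg/ml), a bacterial product that makes B cells divide, in 10% fetal calf serum. They were 2 KOKI cultures, 2 wild-type (WT) cultures with LPS and 200 ng/ml SAHA, an inhibitor of histone deacetylases, and 2 WT cultures with LPS alone. The labels do not spell out KOKI, and they contradict each other on whether the KOKI cultures received SAHA: the titles and the design text name LPS, the treatment label LPS and SAHA. The ages of the mice are not stated.

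Eosinophils, mast cells and basophils are granulated cells of the innate immune system that take part in allergy and in defence against worms. Eosinophils and basophils mature in the bone marrow, while mast cells complete their maturation in tissues. Eosinophil granules hold cationic proteins, a peroxidase and ribonucleases, and mast cells and basophils store proteases and histamine and carry the high-affinity receptor for immunoglobulin E (IgE).

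In the deposited mm10 coordinates, Prg2 (chromosome 2, 84980461 to 84983632) and Prg3 (chromosome 2, 84988215 to 84993886) lie side by side on the plus strand. Ear1 (chromosome 14, 43818765 to 43875517), Ear2 (chromosome 14, 44102654 to 44103534) and Mcpt8 (chromosome 14, 56082166 to 56085216) share chromosome 14. Epx lies on chromosome 11 (87864000 to 87875536), Cpa3 on chromosome 3 (20215620 to 20242181), Ms4a2 on chromosome 19 (11615523 to 11623719), Fcer1a on chromosome 1 (173221284 to 173227214) and Gata2 on chromosome 6 (88193891 to 88207032).

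Gata2 and its relative Gata1 encode GATA factors, which bind short sites with the core GATA and are known to act on genes of these lineages. The sequences before the transcription start were therefore searched on both strands for AGATAA and, as a second accepted form, TGATAA. The RefSeq promoter table (build GRCm38.p6) held 9 of the 10 genes, all but Prg2. In the 250 bases before the start, 4 of these 9 genes held a match (Prg3, Cpa3, Ms4a2 and Fcer1a), against 18.84% of all 27025 genes in that table, and 5 did not (Epx, Ear1, Ear2, Mcpt8 and Gata2). A match describes these letters and is not a bound site. The last 130 bases before the start of the 4 genes with a match are shown 5′ to 3′ on the gene's strand, with each match in capitals, read on either strand.
Prg3, chr2:84988085-84988214, plus strand: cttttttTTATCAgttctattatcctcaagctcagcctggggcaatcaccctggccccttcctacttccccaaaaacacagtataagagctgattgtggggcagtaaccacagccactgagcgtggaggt
Cpa3, chr3:20242182-20242311, minus strand: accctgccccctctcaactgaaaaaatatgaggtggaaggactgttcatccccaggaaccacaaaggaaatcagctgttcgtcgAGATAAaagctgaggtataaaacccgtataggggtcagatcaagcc
Ms4a2, chr19:11623720-11623849, minus strand: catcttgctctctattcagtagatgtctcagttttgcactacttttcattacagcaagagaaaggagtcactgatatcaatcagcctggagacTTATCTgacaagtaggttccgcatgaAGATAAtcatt
Fcer1a, chr1:173227230-173227359, minus strand: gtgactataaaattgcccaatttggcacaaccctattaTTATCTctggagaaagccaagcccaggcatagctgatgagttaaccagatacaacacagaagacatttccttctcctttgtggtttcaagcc
The match of Cpa3 begins 46 bases before the start and lies on the gene's own strand. Ms4a2 held 3 matches, at 11, 37 and 224 bases before the start, of which the first 2 are within the stretch shown.

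Ear1 and Ear2 encode eosinophil-associated ribonucleases that arose by gene duplication. Their upstream stretches, shown to let their likeness be seen, share an unbroken run of 128 bases.
Ear1, chr14:43819640-43819769, minus strand: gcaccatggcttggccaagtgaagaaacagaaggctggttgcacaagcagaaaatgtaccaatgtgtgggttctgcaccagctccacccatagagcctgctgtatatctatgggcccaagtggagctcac
Ear2, chr14:44102524-44102653, plus strand: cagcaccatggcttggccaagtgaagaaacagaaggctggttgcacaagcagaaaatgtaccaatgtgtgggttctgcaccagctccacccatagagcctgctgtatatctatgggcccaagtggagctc
Over the 250 bases before the start, 246 of 248 aligned bases of the pair were identical (99.19%). Their annotated transcripts (GENCODE M21) matched at 691 of 713 aligned bases (96.91%). Of all 50-base stretches of the Ear1 transcript, 57.38% also occurred in a transcript of another gene, foremost relatives such as Ear2 and Ear10, and for Ear2 the share was 41.49%. The sources do not state whether reads matching several places were counted, so the split of reads between Ear1, Ear2 and their relatives is uncertain. No such stretch was shared for 7 of the other 8 genes, and for Ms4a2 the share was 2.69%. The start that RefSeq gives Ear1 lies within the longer gene that the deposited table counts.

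Total counts ran from 18614742 to 29314068 per library. The deleted genes did not mark the backgrounds: Rag2 stood at 7.24 and 9.32 CPM (counts scaled to the library total) in the KOKI pools lacking both proteins and RAG2 alone, and at 9.16 and 6.93 CPM in the controls, and Il2rg at 10.2 and 11.4 CPM in those KOKI pools and at 12.3 and 8.12 CPM in the controls. The deleted part of each gene is not named in the labels, so a count over the whole gene cannot check them. Ms4a1 (CD20), a marker of mature B cells, had 2 counts in 1 femoral KOKI pool and 0 in the other 3 femoral libraries, against at least 16718 counts in every splenic library. The whole list of 10 B-lineage markers summed to 68.4 to 72.2 CPM in the femoral KOKI pools and 55.7 to 62.5 CPM in the femoral controls, against 2186 to 3251 CPM in the splenic libraries. In the edgeR test of femur against spleen described further on, 3 of the 10 passed as higher in the femur (Dntt, Rag1 and Igll1, genes of early lymphoid cells) and 6 as lower, Ms4a1 among them. Over all genes tested, 26.3% passed as higher and 25% as lower. Among the splenic libraries alone, 6 of the 10 passed the filter on low counts, so these counts describe the tested genes only. Most of the femoral sum was Dntt, at 59.7 TMM-normalised CPM in KOKI pools and 41.4 in controls on average (TMM is edgeR's scaling for composition). Rag1 and Igll1 were low, at 0.357 to 1.61 and 0.224 to 1.17 TMM-normalised CPM over the femoral libraries. The summed markers of neutrophils made up 15039 to 22490 CPM of the femoral KOKI pools and 15160 to 20786 CPM of the controls. The erythroid markers made up 9273 to 12396 CPM of the femoral KOKI pools and 10510 to 10823 CPM of the controls. The 6 markers of bone stroma made up 2290 to 2451 CPM of the femoral KOKI pools and 651 to 1466 CPM of the controls. In such bulk RNA, fewer cells of a type and less RNA per cell cannot be told apart.

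Each of the 10 genes had at least 483 counts in every femoral library. Their sum was 1939 and 2268 CPM in the KOKI pools lacking both proteins and RAG2 alone, against 1944 and 1876 CPM in the controls. Per kilobase of counted length, TMM-normalised CPM averaged over the 4 libraries gave the order Prg2 (1340), Ear1 (284), Ear2 (234), Mcpt8 (191), Prg3 (51.0), Cpa3 (46.8), Epx (46.3), Fcer1a (22.8), Ms4a2 (21.0) and Gata2 (5.25). Prg2 ranked 80th among all genes on this scale. The lowest library of Prg2 (997) lay above the highest of Ear1 (344), that of Mcpt8 (182) above the highest of Prg3 (69.5), that of Epx (41.7) above the highest of Fcer1a (24.6), and that of Ms4a2 (16.97) above the highest of Gata2 (6.51). The ranges of the other neighbours in the order overlapped. Prg2, Ear1, Ear2 and Mcpt8 thus formed the upper part of the order in every library, and every granule gene stood above the receptor subunits and the transcription factor.

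**Figure D1:**
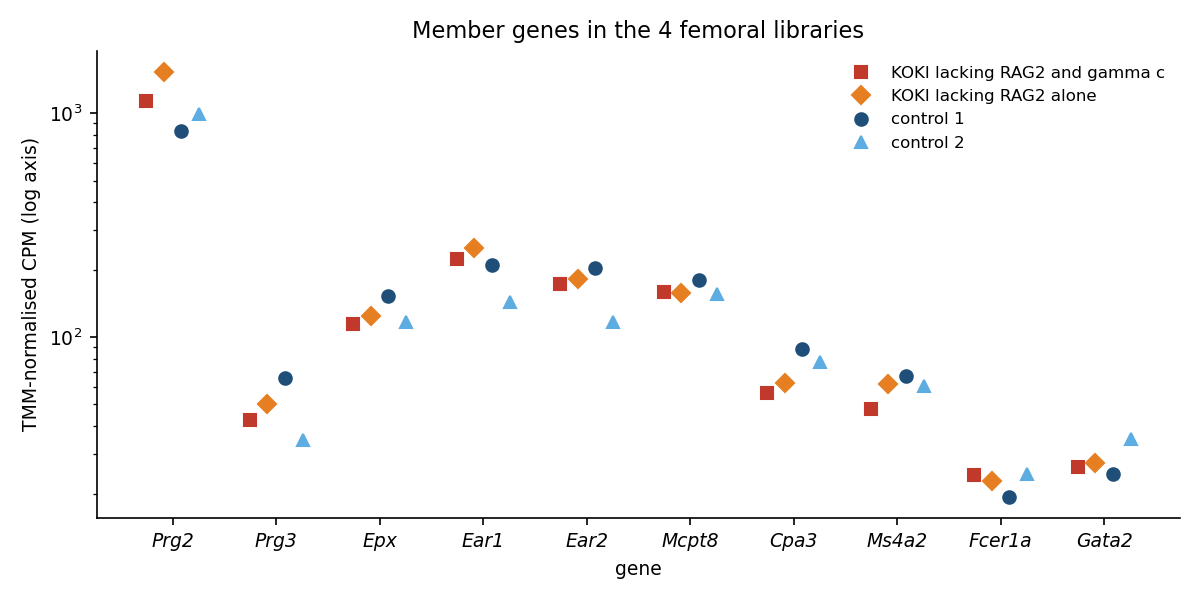
TMM-normalised CPM of the 10 genes on a log axis in the 4 femoral libraries, 1 point per library. Prg2 stood between 836 and 1528 CPM in all 4, and every other gene at or below 251 CPM.

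Among the eosinophil granule genes, Prg2, the major basic protein of the granule core, had 23210 counts in the KOKI pool that lacked both proteins and 32383 in the pool without RAG2 alone, against 25737 and 31122 counts in the controls. Scaled to library size with TMM, as in the values that follow, this was 1132 and 1528 CPM in the KOKI pools, against 836 and 997 CPM in the controls. Both KOKI pools lay above both controls. Prg3, a second major basic protein and the neighbour of Prg2, stood at 42.8 and 50.2 CPM in the KOKI pools, against 65.9 and 34.6 CPM in the controls. The controls enclosed the KOKI pools, and differed from each other by a ratio of 1.91, the widest gap between controls among the 10 genes. Epx, eosinophil peroxidase, stood at 114 and 124 CPM in the KOKI pools, against 152 and 116 CPM in the controls, with overlapping groups.

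The neighbouring Prg2 and Prg3 did not keep 1 ratio. Prg2 had 26.4 and 30.5 counts for each count of Prg3 in the KOKI pools lacking both proteins and RAG2 alone, against 12.7 and 28.8 in controls 1 and 2. Control 1 stood apart from the other 3 libraries. Against Epx, Prg2 had a count ratio of 9.92 and 12.3 in the KOKI pools and of 5.50 and 8.56 in the controls. Both KOKI pools lay above both controls, by less than the distance between the controls. Prg3 against Epx varied less, with 0.375 and 0.403 in the KOKI pools and 0.434 and 0.297 in the controls.

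Ear1, a ribonuclease of the eosinophil granule, stood at 224 and 251 CPM in the KOKI pools, against 210 and 144 CPM in the controls. The KOKI pools lay above both controls, but the upper control was close to the lower KOKI pool. Ear2 stood at 172 and 182 CPM in the KOKI pools, against 203 and 117 CPM in the controls, with the KOKI pools inside the range of the controls. Ear1 exceeded Ear2 in every library, by a count ratio of 1.31 and 1.38 in the KOKI pools and 1.04 and 1.23 in the controls. For both, control 1 stood above control 2, by 1.46 for Ear1 and 1.74 for Ear2. Without Prg2, the eosinophil granule genes summed to 537 and 559 CPM of plain totals in the KOKI pools and to 664 and 439 CPM in the controls, and the groups overlapped.

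Mcpt8, a serine protease that marks basophils despite its name (mast cell protease 8), stood at 159 and 158 CPM in the KOKI pools, against 181 and 156 CPM in the controls. These 4 libraries were the most even of the 10 genes relative to their mean on the scale per kilobase, with an SD of 13.7 around 191. Cpa3, a carboxypeptidase of mast cell and basophil granules, stood at 56.3 and 62.1 CPM in the KOKI pools, against 88.8 and 77.1 CPM in the controls. Both KOKI pools lay below both controls, and the gap between groups was wider than that within either. For each count of Mcpt8 there were 0.355 and 0.393 counts of Cpa3 in the KOKI pools, against 0.491 and 0.495 in the controls.

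Fcer1a encodes the alpha chain of the high-affinity IgE receptor, which binds IgE, and Ms4a2 its beta chain, which amplifies the signal. Fcer1a stood at 24.3 and 22.8 CPM in the KOKI pools, against 19.4 and 24.5 CPM in the controls. Ms4a2 stood at 47.7 and 61.5 CPM in the KOKI pools, against 66.7 and 60.7 CPM in the controls. The groups overlapped for both genes. Ms4a2 exceeded Fcer1a in every library, with a count ratio of 1.97 and 2.70 in the KOKI pools and 3.44 and 2.47 in the controls, although per kilobase the ranges of the genes overlapped. Gata2, the transcription factor that mast cells and basophils need, stood at 26.3 and 27.3 CPM in the KOKI pools, against 24.5 and 35.2 CPM in the controls, which enclosed the KOKI pools. Its count ratio to Gata1, the GATA factor of eosinophils, mast cells and erythroid cells, was 0.770 and 0.828 in the KOKI pools and 0.426 and 1.21 in the controls.

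No call was made for any of the 10 genes between femoral KOKI pools and controls. All 10 entered the edgeR quasi-likelihood test, and 0 passed a Benjamini-Hochberg adjusted p under 0.05, where 0.0301% of the 16624 genes tested did. At an unadjusted p under 0.05 there was 1 of the 10, Cpa3, against 16.2% of all genes, and the DESeq2 Wald test called 0 of the 10, against 4.07% of all genes. The log2 fold change was largest for Prg2, at 0.54 (SE 0.29, 95% interval −0.13 to 1.20, edgeR adjusted p = 0.399, n = 2 in each group). Cpa3 had the lowest, at −0.49 (SE 0.18, 95% interval −0.90 to −0.08, edgeR adjusted p = 0.247), and Ear1 followed Prg2 with 0.42 (95% interval −0.13 to 0.97, edgeR adjusted p = 0.422). The other 7 lay between −0.22 for Ms4a2 and 0.15 for Ear2. The median of the 10 was −0.10, beside −0.02 over all genes tested. Both KOKI pools lay outside the controls on the higher side for 2 of the 10 (Prg2 and Ear1), where 25.3% of all genes did, and on the lower side for 1 (Cpa3), where 24.2% did. This tally holds for TMM. With plain library totals, an alternative chosen after seeing the data, it was 1 on the higher side (Prg2), where 16.8% of all genes were, and 5 on the lower side (Epx, Mcpt8, Cpa3, Ms4a2 and Gata2), where 35.4% were, and Ear1 overlapped.

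**Figure D2:**
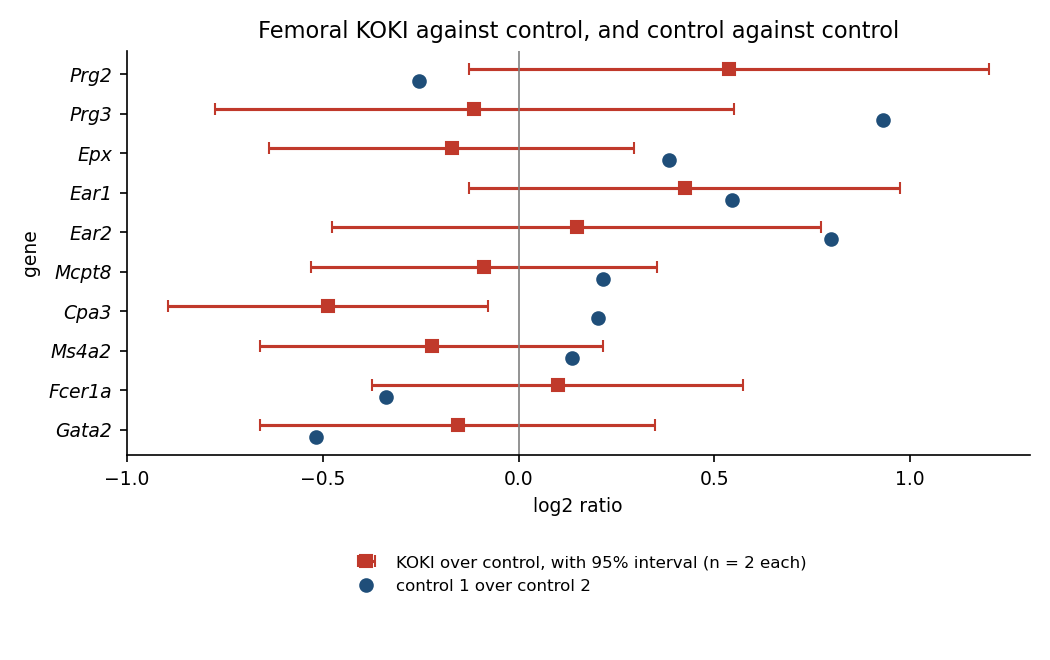
Log2 ratio of the femoral KOKI pools over the controls with its 95% interval from edgeR (red squares), and log2 ratio of control 1 over control 2 without error (blue dots), for the 10 genes. The interval included 0 for all but Cpa3, and for 7 genes the distance between the controls was larger than the KOKI difference.

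The intervals of some genes allow sizeable differences in either direction. That of Prg3 ran from −0.78 to 0.55 and that of Ear2 from −0.48 to 0.77. Which genes passed depended on the control pool. Without control 1, Ear1 (log2 0.72, edgeR adjusted p = 0.00413) and Ear2 (log2 0.60, edgeR adjusted p = 0.0135) passed as higher in KOKI, where 6.46% of all genes did. Without control 2, Prg3 (log2 −0.50, edgeR adjusted p = 0.0298) and Cpa3 (log2 −0.58, edgeR adjusted p = 0.00917) passed as lower, where 9.57% of all genes did. In these fits the lone control is assumed to vary like the KOKI pools. Scaling by plain library totals moved the median of all genes by −0.165, and under it Ear2 and Fcer1a had log2 values just under 0.

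The KOKI pools differ from each other in gamma c, so the comparison was repeated on the background that the groups share. With the KOKI pool lacking both proteins alone against the controls (fit of all 10 libraries), 0 of the 10 genes and 0% of 20204 genes passed in edgeR, 0 of the 10 and 8.22% of all genes had an unadjusted p under 0.05, and DESeq2 called 0 of the 10 and 0.119% of all genes. The log2 values ran from −0.55 for Cpa3 to 0.35 for Ear1. These comparisons share their controls and 1 KOKI pool. Between the KOKI pool lacking RAG2 alone and the KOKI pool lacking both proteins, 0 of the 10 passed in edgeR and 0% of all genes, 0 of the 10 had an unadjusted p under 0.05 (1.13% of all genes) and DESeq2 called 0. The log2 values of the 10 ran from −0.11 for Fcer1a to 0.42 for Prg2, whose 95% interval was −0.64 to 1.47. With 1 library per arm, the spread came from the other groups.

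Neither of the 2 groups of genes held a called gene between femoral KOKI pools and controls, as 0 of the 10 passed. The 5 eosinophil granule genes summed to 1635 and 1963 CPM of plain totals in the KOKI pools lacking both proteins and RAG2 alone, against 1544 and 1500 CPM in the controls. The 4 mast cell and basophil genes (Mcpt8, Cpa3, Ms4a2 and Fcer1a) summed to 278 and 280 CPM in the KOKI pools, against 374 and 339 CPM in the controls. With TMM the first sum was 1685 and 2136 CPM in the KOKI pools, against 1467 and 1408 CPM in the controls, and the second 287 and 304 CPM in the KOKI pools, against 356 and 318 CPM in the controls. On both scales KOKI lay above the controls in the first sum and below them in the second, where the gap between the nearest libraries was narrower with TMM. Most of the first sum was Prg2, and no test was made on either sum. Of the genes in the second sum, only Cpa3 lay below both controls with TMM, while Mcpt8, Ms4a2 and Fcer1a overlapped. With plain totals Mcpt8 and Ms4a2 lay below both controls too, and Fcer1a overlapped. The summed level of the 6 stroma markers, given above, was higher in both KOKI pools too, but its members differed. Of the 6, 4 lay above both controls, among them Col1a1, a collagen of bone, which averaged 1026 TMM-normalised CPM in KOKI pools and 365 in controls, and Bglap (osteocalcin), which averaged 192 in KOKI pools and 46.0 in controls. Lepr lay below both controls, at 16.8 TMM-normalised CPM in KOKI pools and 21.8 in controls, and Cxcl12 overlapped. The 8 T and NK cell markers summed to 46.8 to 49.96 CPM in the KOKI pools and 37.1 to 41.7 CPM in the controls. That sum was mostly Nkg7, a granule gene of NK cells, at 42.7 TMM-normalised CPM in KOKI pools and 29.7 in controls. Cd3d and Ncr1 lay below both controls, at 0.337 and 0.048 TMM-normalised CPM in KOKI pools and 0.644 and 0.194 in controls, the other 5 overlapped, and Cd3e was at 0 in all 4 libraries. Of the 10 B-lineage markers, 2 lay above both controls, Dntt and Cd79b, the second at 9.74 TMM-normalised CPM in KOKI pools and 9.58 in controls, and the other 8 overlapped. Over all genes tested, 25.3% lay above both controls with TMM and 24.2% below both, which is the share to set beside these marker counts. The summed markers of neutrophils, macrophages, erythroid cells and megakaryocytes overlapped between the groups. Their part in these differences was not tested.

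Other genes of the 3 cell types were drawn from lists of their receptors, enzymes, signalling chains and regulators. In the femoral KOKI comparison, edgeR called 0 of 10 tested genes of the further eosinophil list, 0 of 10 of the mast cell list, 0 of 10 of the basophil list, 0 of 12 of the IgE receptor signalling list, 0 of 12 of the cytokine receptor list and 0 of 15 of the lineage regulator list, beside 0.0301% of all genes. At an unadjusted p under 0.05 these lists had 0, 1, 1, 1, 1 and 1 gene in that order, beside 16.2% of all genes, and DESeq2 called 2 genes in all, beside 4.07% of all genes. These were Hpgds, a prostaglandin D2 synthase of mast cells, and Crlf2, the receptor chain for the cytokine TSLP, both singled out after their values were seen. Hpgds averaged 4.85 ± 0.112 CPM in KOKI pools and 11.01 ± 0.599 CPM in controls (SD, n = 2 each, log2 −1.18, edgeR adjusted p = 0.131). Crlf2 averaged 28.1 ± 2.50 CPM in KOKI pools and 14.96 ± 3.02 CPM in controls (SD, n = 2 each, log2 0.91, edgeR adjusted p = 0.142).

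The genes of highest femoral level in those lists included granule and receptor genes. Prss34, mast cell protease 11, a protease of basophils, averaged 237 ± 5.26 CPM in KOKI pools and 193 ± 9.54 CPM in controls (SD, n = 2 each). Hdc, which makes histamine, averaged 57.5 ± 1.503 CPM in KOKI pools and 76.3 ± 11.9 CPM in controls. Il18rap, a chain of the receptor for interleukin 18, averaged 52.7 ± 7.22 CPM in KOKI pools and 76.5 ± 17.3 CPM in controls. Of the basophil list, Prss34 was thus on the higher side in both KOKI pools and the other 2 were on the lower side, with none past the threshold (lowest edgeR adjusted p = 0.277, for Il18rap).

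In the mast cell list, Srgn, the granule proteoglycan serglycin that many blood cells make, averaged 309 ± 10.2 CPM in KOKI pools and 323 ± 99.7 CPM in controls (SD, n = 2 each). Kit, the receptor for stem cell factor on mast cells and early progenitors, averaged 59.5 ± 2.43 CPM in KOKI pools and 75.5 ± 11.2 CPM in controls. In the eosinophil list, Ear6, a further ribonuclease of the same family, averaged 162 ± 11.6 CPM in KOKI pools and 127 ± 28.3 CPM in controls. Alox15, a lipoxygenase of eosinophils and macrophages, averaged 59.3 ± 6.19 CPM in KOKI pools and 53.1 ± 16.2 CPM in controls, and Gata1 averaged 33.6 ± 0.812 CPM in KOKI pools and 43.4 ± 20.2 CPM in controls. Ear14 was at 0 in all 4 femoral libraries.

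The proteases that mark mature mast cells were close to absent, while the genes that mast cells share with basophils or progenitors were not. Mcpt1, Mcpt9 and Tph1, the first 2 being mast cell proteases and the last the enzyme that starts serotonin synthesis, had 0 counts in all 4 femoral libraries. The following were singled out after their values were seen. Cma1 (chymase) had 3 and 1 counts in the KOKI pools lacking both proteins and RAG2 alone, against 4 and 0 counts in the controls. Mcpt4 had 0 in both KOKI pools, against 12 and 2 counts in the controls. The tryptase Tpsb2 had 2 and 0 counts in the KOKI pools, against 1 and 3 in the controls, and the tryptase Tpsab1 had 0 in both KOKI pools, against 0 and 2 in the controls. Mcpt8, by contrast, had 3255 and 3345 counts in the KOKI pools, against 5564 and 4860 in the controls. The plot of mast cell and basophil genes shows this gap in all 4 libraries.

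**Figure D3:**
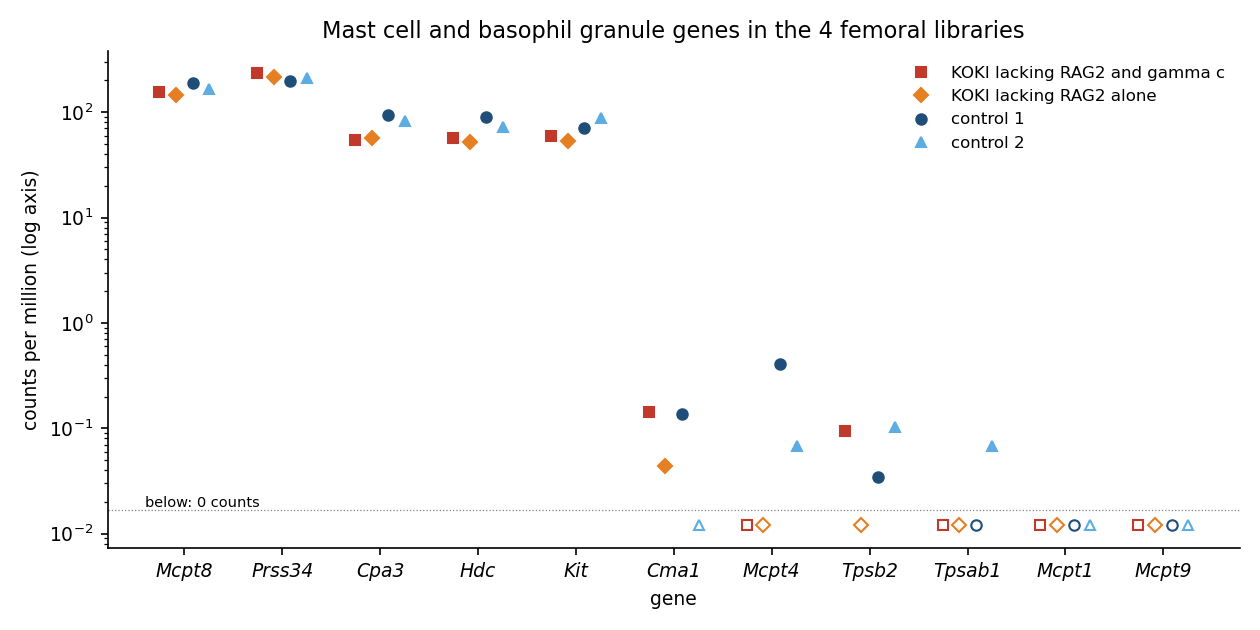
CPM of plain totals on a log axis for 11 mast cell and basophil genes in the 4 femoral libraries, with open symbols below the dotted line for 0 counts. Mcpt8, Prss34, Cpa3, Hdc and Kit had at least 51.9 CPM in all 4 libraries, and Cma1, Mcpt4, Tpsb2, Tpsab1, Mcpt1 and Mcpt9 at most 0.41 CPM.

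All 10 genes were far higher in the femoral libraries than in the splenic cultures. Each passed the edgeR test of the 4 femoral against the 6 splenic libraries as higher in the femur, where 26.3% of 20204 genes did. The test set the mean of the femoral groups against the mean of the splenic groups, with equal weight for each group. A single KOKI pool thus weighed as much as both controls together. Most of the 10 passed the filter on low counts through the femoral libraries, where they were high: among the splenic libraries alone, only Prg2 and Ms4a2 passed it. The count of 10 therefore describes these genes and supports nothing about their cell types. The log2 fold change ran from 7.43 for Prg3 (SE 0.33, 95% interval 6.70 to 8.16, edgeR adjusted p = 3.84e-09) to 13.89 for Ear1 (SE 0.34, 95% interval 13.13 to 14.64, edgeR adjusted p = 5.54e-10), with a median of 11.45 beside −0.05 over all genes. Leaving out 1 splenic library moved some of these values outside their printed intervals. Without SAHA replicate 2, Prg3 was at 9.24 and Ear1 at 15.29, and the lowest of the 10 was then Ms4a2, at 8.66. All 10 still passed. Fitted values of genes with few splenic counts depend on the prior count of the fit, and that of Fcer1a, at 0 in every splenic library, is no bound. Tissue, the taking of spleen cells without CD43, culture with LPS and the deletion of RAG2 change together between these libraries and cannot be told apart.

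**Figure D4:**
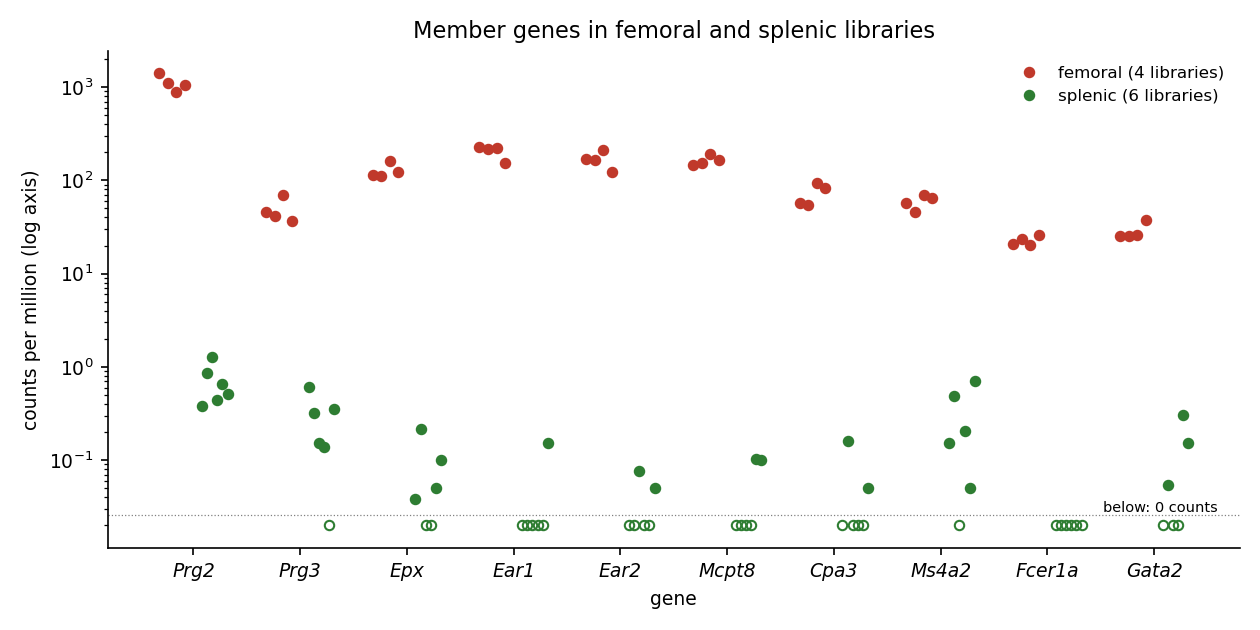
CPM of plain totals on a log axis for the 10 genes in the 4 femoral and 6 splenic libraries, with open circles below the dotted line for 0 counts. The lowest femoral point was 20.4 CPM, and the highest splenic point 1.28 CPM.

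The splenic counts were few but not alike between genes. Prg2 had 10 and 16 counts in the KOKI cultures, 13 and 10 in the WT cultures with SAHA and 34 and 13 in the WT cultures with LPS alone, and was the only one of the 10 genes with a count in every splenic library. Prg3 had 16 and 6 counts in the KOKI cultures, 0 and 7 in the SAHA cultures and 4 and 4 in the LPS cultures. Ms4a2 had 4 and 9 counts in the KOKI cultures, 1 and 14 in the SAHA cultures and 0 and 6 in the LPS cultures. Gata2 had 0 and 1 counts in the KOKI cultures, 6 and 3 in the SAHA cultures and 0 in both LPS cultures. Over all 6 splenic libraries together, Epx had 8 counts, Mcpt8 4, Cpa3 4, Ear1 3, Ear2 3 and Fcer1a 0. All 3 splenic counts of Ear1 came from SAHA replicate 2.

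Pooled over libraries, the splenic level was 0.538% of the femoral level for Prg3 (95% exact Poisson interval 0.379% to 0.741%), 0.401% for Ms4a2 (0.278% to 0.560%) and 0.247% for Gata2 (0.119% to 0.455%). It was 0.0627% for Prg2 (0.0508% to 0.0766%), 0.0442% for Epx, 0.0386% for Cpa3, 0.0173% for Mcpt8, 0.0128% for Ear2 and 0.0105% for Ear1 (0.00218% to 0.0308%). The intervals of Prg3, Ms4a2 and Gata2 lay above those of the other 6 genes with counts. For Gata2 this rested on the SAHA cultures, which held 9 of its 10 counts. Without SAHA replicate 1 its share was 0.115% (0.0314% to 0.295%), and its interval overlapped those of all 6. Without SAHA replicate 2 its share was 0.201% (0.0810% to 0.415%), and its interval overlapped those of Cpa3 and Epx. The share of Prg3 was 0.375% (0.232% to 0.574%) without KOKI replicate 1, and that of Ms4a2 was 0.274% (0.168% to 0.424%) without SAHA replicate 2, the lowest that leaving out 1 splenic library gave for either. Fcer1a was at least 1064-fold higher in the femur, taking 3 counts over the 6 splenic libraries as the limit that a count of 0 allows. The 95% exact Poisson interval given for the other genes is wider here, with an upper bound of 0.116% of the femoral level for Fcer1a. These intervals and this limit cover counting error alone, without molecular identifiers to count molecules. Prg2 had 96 and Prg3 37 counts over the 6 splenic libraries, a ratio of 2.59, where the lowest femoral ratio was 12.7. The splenic libraries did not share 1 ratio, with 10 counts of Prg2 and 16 of Prg3 in KOKI replicate 1 and 13 and 0 in SAHA replicate 1. Without KOKI replicate 1 the ratio was 4.10, with 86 and 21 counts, and without LPS replicate 1, the library with 34 counts of Prg2, it was 1.88. The chains of the IgE receptor parted too, with 34 splenic counts of Ms4a2 and 0 of Fcer1a, where no femoral library had a ratio above 3.44.

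**Figure D5:**
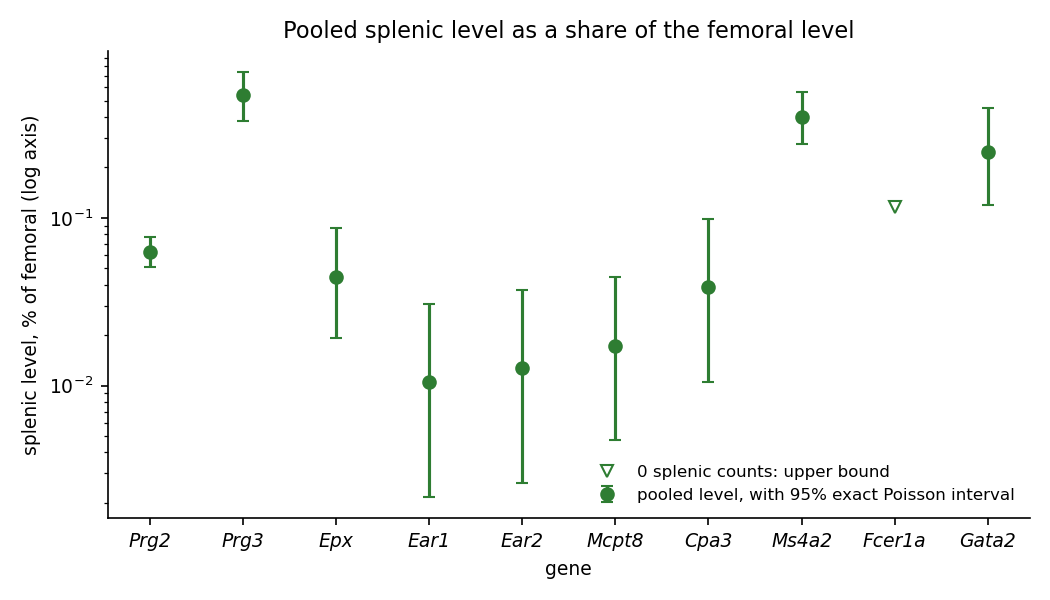
Pooled splenic level of each of the 10 genes as a percentage of its pooled femoral level, on a log axis, with the 95% exact Poisson interval, and a triangle at the upper bound for Fcer1a, which had 0 splenic counts. Prg3, Ms4a2 and Gata2 lay at 0.247% or more, and the other 6 genes with counts at 0.0627% or less, but the interval of Gata2 overlapped those of all 6 without SAHA replicate 1 (0.115%).

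Among the splenic cultures, only Prg2 and Ms4a2 of the 10 genes passed the filter on low counts. With SAHA against LPS alone, 0 of these 2 passed the edgeR test, where 4.64% of 15342 genes did, 0 had an unadjusted p under 0.05 (25.3% of all genes) and DESeq2 called 0 (11.1% of all genes). Prg2 had a log2 fold change of −0.63 (95% interval −2.52 to 1.25, edgeR adjusted p = 0.682) and Ms4a2 of 1.63 (95% interval −1.82 to 5.09, edgeR adjusted p = 0.543). In KOKI cultures against WT cultures with LPS, 0 of the 2 passed in edgeR, where 4.08% of all genes did, 0 had an unadjusted p under 0.05 (17.5% of all genes) and DESeq2 called 0 (7.09% of all genes). Prg2 had a log2 fold change of −0.52 (95% interval −2.39 to 1.35, edgeR adjusted p = 0.816) and Ms4a2 of 1.49 (95% interval −1.99 to 4.98, edgeR adjusted p = 0.693). These comparisons share the LPS cultures, and the direction of Prg2 turned in both without LPS replicate 1, the library with 34 counts (log2 0.33 for SAHA and 0.45 for KOKI). At this depth no difference of Prg2 or Ms4a2 between splenic cultures was detectable, and the other 8 genes had too few counts to be tested.

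Of the further eosinophil list, 11 genes were in the table and 10 were tested across tissues, of which 8 passed as higher and 1 as lower in the femur. Of the 21 genes of the mast cell list 12 were tested, of which 9 passed as higher and 0 as lower, and of the 11 genes of the basophil list 10 were tested, all passing as higher. Many of these genes passed the filter on low counts through the femoral libraries, where they were high: among the splenic libraries alone, 2 of the eosinophil, 6 of the mast cell and 3 of the basophil genes passed it. The counts therefore describe the tested genes and support nothing about the lists. All 13 cytokine receptors were tested, with 9 higher and 4 lower, and all 12 IgE receptor signalling genes, with 4 higher and 4 lower. All 15 lineage regulators were tested too, with 13 higher and 1 lower. Over all genes, 26.3% passed as higher and 25% as lower. Among the splenic libraries alone, 11 of the 15 regulators passed the filter on low counts, so their count also describes the tested genes only. Il5ra, the interleukin 5 receptor chain of eosinophils that B cells can also carry, was the exception in the eosinophil list. It stood at 6.43 and 5.29 CPM in the femoral KOKI pools and 8.85 and 6.28 CPM in the femoral controls, against 23.3 to 41.3 CPM in the 6 splenic libraries (log2 −2.40, SE 0.16, edgeR adjusted p = 1.58e-07). Fcer1g, the signalling chain that the IgE receptor shares with other Fc receptors, stood at 183 and 158 CPM in the femoral KOKI pools and 202 and 120 CPM in the femoral controls, against 0.728 to 2.63 CPM in the splenic libraries (log2 6.44, edgeR adjusted p = 7.02e-10). Both genes were singled out after their values were seen.

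The genes nearest in pattern were found by the root mean square difference of log2(CPM + 0.5), each gene centred on its mean over the 10 libraries, among 9113 genes with a femoral mean of at least 10 CPM. Nearest to Prg2 were the haemoglobin gene Hba-a2 (0.34), the neutrophil granule genes Camp (0.37), Prtn3 (0.48) and Elane (0.55), and Car1, the carbonic anhydrase of red cells (0.56). Of the other 9 genes, the closest to Prg2 was Ear1, in place 17, and Prg3 stood in place 179. Nearest to Mcpt8 were Ear6 (0.19), Ear2 (0.20), Alas2, which starts haem synthesis in red cells (0.24), the water channel Aqp1 (0.25) and Ear1 (0.27). The measure is set mostly by the step between femur and spleen, which the 4 femoral libraries share, and by how low the splenic counts were.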

How the data were processed

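The authors deposited raw, unnormalised counts of reads per gene in 1 table. Per the labels' protocols, total RNA (miRNeasy kit) was turned into TruSeq Stranded Total RNA libraries. STAR 2.4.0a, featureCounts (Subread 1.4.6-p1) and mm10 (GRCm38) are named in the submitters' processing notes. Neither the strand setting nor the handling of reads matching several places is stated. From the counts, 100 spike-in and phiX entries, summing to 1 to 17 counts per library, were left out. Samples were grouped by their labels, and nothing says that splenic replicates came from separate animals, so p-values measure the spread between these samples only, which may be technical. No pair of replicates was a copy (chi-square per degree of freedom of at least 92.6 between counts).

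Tests used edgeR 4.0.16 in R 4.3.3 (TMM, filterByExpr at its default limits of 10 counts and a total of 15, quasi-likelihood F test, Benjamini-Hochberg adjusted p under 0.05 over all genes), with DESeq2 1.42.0 as an alternative. The 4 femoral libraries, the 6 splenic libraries and all 10 libraries were fitted separately. On simulated counts the femoral test found 33% of genes changed by a log2 of 1 and 96% of those changed by 2, among 16184 genes. The genes and lists were chosen with earlier results of these data known. Named besides the 10 genes were called list genes of the femoral comparison, the 3 of highest femoral level in the eosinophil, mast cell and basophil lists, list genes at 0 in every femoral library and the 5 nearest in pattern to Prg2 and to Mcpt8. Alternatives were other scalings, no filter on low counts, DESeq2, another set of samples and leaving out each library. The splenic shares and ratio without each library, and the position of the femoral pools on plain totals, were added after seeing the data.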

Additional observations from a re-analysis of the deposited data

How the results depend on the processing

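All 10 genes passed as higher in the femur than in the spleen under every alternative run, with log2 values of 7.21 to 15.29 over 130 single values. In the main fit 26.3% of all genes passed as higher. Most of the 10 passed the filter on low counts through the femoral libraries, where they were high, so these counts describe the genes only. Between femoral KOKI pools and controls, 0 of the 10 passed under other scalings, without a filter, in DESeq2 and in the fit of all 10 libraries, and 0 to 2 passed with a library left out. The count over all genes there was 5, and it became 0 with RLE (DESeq2) size factors, 0 with plain totals, 0 in the fit of all 10 libraries, 662 without a filter, 677 in DESeq2 and 13 to 3456 with a library left out. On the matched background it was 0, then 1 with plain totals, 368 without a filter, 24 in DESeq2 and 0 to 19 with a control left out. Between the KOKI pools it was 0, and 54 without a filter. For SAHA it was 712, then 32 with plain totals, 1970 without a filter, 1704 in DESeq2 and 0 to 290 with a library left out. For the splenic KOKI cultures it was 626, then 1254 without a filter, 1088 in DESeq2 and 270 to 708 with a library left out. With the replicate number as a block the SAHA count was 3413 and the splenic KOKI count 1313. Past the threshold were 0 of the 10 genes, of which only Prg2 and Ms4a2 were tested in the main splenic fits. For same-numbered splenic libraries, the deviations of log2 CPM from the mean of the own group were correlated over genes. This gave 0.364 (SAHA and LPS) and 0.079 (KOKI and LPS). With 2 libraries per group the deviations of the second mirror those of the first, so each is a single value. In the titles the number follows WT for both the SAHA and the LPS cultures, so these may come from the same WT source, which is not stated. The KOKI and LPS cultures share only a number. The main tests did not use the number. The femoral groups carry no shared numbers for a block. Directions of uncalled genes turned in 9 of 90 femoral values. With plain totals Ear2 was at −0.015 and Fcer1a at −0.065, and with a library left out Prg3 ran from −0.50 to 0.43, Epx from −0.34 to 0.034, Mcpt8 from −0.18 to 0.025, Fcer1a from −0.059 to 0.29, Ear2 from −0.19 to 0.60 and Gata2 from −0.39 to 0.14. On the matched background Ear2 was at −0.019 with plain totals, and with a control left out Prg3 ran from −0.62 to 0.29, Mcpt8 from −0.18 to 0.0094, Fcer1a from −0.033 to 0.33, Ear2 from −0.24 to 0.54 and Gata2 from −0.44 to 0.10. Between the KOKI pools Mcpt8 was at 0.0044 with RLE size factors and in DESeq2 and ran from −0.025 to 0.012 with a control left out, and Gata2 was at −0.022 with plain totals. In the spleen with a library left out, Prg2 ran from −1.23 to 0.33 and Ms4a2 from −0.93 to 5.93 for SAHA, and Prg2 from −1.19 to 0.45 for KOKI. The cause of these changes was not tested. Scaling by RLE and by plain totals moved the median of all genes by 0.106 and 0.197 between femur and spleen. With plain totals the femoral KOKI pools lay above both controls for 1 and below both for 5 of the 10 genes, beside 16.8% and 35.4% of all genes. With TMM these were 2 and 1, beside 25.3% and 24.2%. Splenic counts of 0 to 34 per gene and library limit what the splenic comparisons can show.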
